A study of Caenorhabditis elegans with 6 samples.

Results

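The hedgehog-related and patched-related genes of Caenorhabditis elegans were followed in whole animals of the strain nmr-2(ok3324) and in wild-type N2 animals (WT). Members were taken by their names, from families picked with earlier results of these data known: the warthog (wrt), groundhog (grd), ground-like (grl) and patched-related (ptr) genes, with hog-1, qua-1, ptc-1, ptc-3 and ptd-2. This gave 86 of the 46911 gene rows in the tables, made up of 10 wrt, 16 grd, 31 grl and 24 ptr genes and the 5 single genes. The mutant carries ok3324, a deletion allele of nmr-2, which encodes a subunit of the NMDA-type glutamate receptor. Both genotypes were raised at 20 °C, were fed Escherichia coli OP50 and were labelled L4, the last larval stage, after synchronisation by timed egg laying. Each genotype had 3 RNA-seq libraries of pooled animals; how many animals or separate cultures stand behind a library was not found in the labels.

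Nematodes have no close homologue of the Hedgehog ligand or of Smoothened. They carry instead large families of secreted proteins with Wart, Ground or Ground-like domains, some of which end in the self-cleaving Hog domain that in flies and vertebrates couples Hedgehog to cholesterol. Their counterparts are Patched-type membrane proteins with a sterol-sensing domain, which in worms act largely in epithelia, in cuticle renewal and in membrane traffic. Many genes of both groups are transcribed in pulses that follow the molting cycle.

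Library totals ran from 21234748 to 27893186 counts, at which 3 counts equal 0.108 to 0.141 CPM (counts scaled to library size). TMM scaling factors, which correct for differences in RNA composition, lay at 0.987 to 1.01 in 4 libraries, at 1.20 in nmr-2(ok3324) replicate 2 and at 0.838 in WT replicate 2. The CPM levels of genes given below include these factors. For nmr-2 itself the counts were 3, 5 and 5 in nmr-2(ok3324) and 7, 2 and 10 in WT, too few to check the genotype. The stage label was set against col-19, a collagen gene of the adult cuticle, and vit-2, a yolk protein gene of the adult intestine. The col-19 level was 2075 ± 309 CPM in nmr-2(ok3324) and 2108 ± 284 CPM in WT (SD, n = 3 each), and the vit-2 level was 19030 ± 2931 CPM in nmr-2(ok3324) and 21640 ± 802 CPM in WT. Both adult transcripts were abundant in all 6 libraries. Other stage markers were present as well. lin-41 had 417 ± 54.7 CPM in nmr-2(ok3324) and 518 ± 33.1 CPM in WT, and lin-28 had 30.4 CPM in nmr-2(ok3324) and 30.2 CPM in WT. For lin-14 the means were 10.8 CPM in nmr-2(ok3324) and 10.9 CPM in WT, and for hbl-1 2.70 and 3.05 CPM. The stage of the animals was not tested.

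Of the 86 members, 50 had enough counts to be tested with edgeR, which needs about 10 counts in at least 3 libraries. In nmr-2(ok3324) animals 6 members rose: grl-16, grd-6, grd-14, wrt-4, ptr-23 and ptr-18. These are 4 genes for secreted hedgehog-related proteins and 2 for patched-related membrane proteins. The other 44 tested members did not pass, and 36 were not tested. The 6 are 12% of the tested members, where 1.79% of all 13138 tested genes rose (edgeR quasi-likelihood test, Benjamini-Hochberg adjusted p under 0.05 over all tested genes). The families were picked with earlier results of these data known, in which grl-16, grd-6, grd-14 and wrt-4 had been called. The share is therefore a description of the list and not a test of it. No member fell, where 0.373% of all tested genes did. DESeq2 and limma-voom also called 0 members lower, where they called 0.799% and 0.304% of all tested genes, and 1 member was lower at an unadjusted p under 0.05 in edgeR. RNA came from whole animals, so a change in the number of expressing cells and a change in RNA per cell cannot be told apart. Each of the 6 reached the filter in all 6 libraries, and none has exons that overlap another annotated gene.

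Among the ligand-type genes, grl-16 had the smallest p. It encodes a ground-like protein and lies on chromosome I, 572173 to 575120, minus strand (WBcel235). Its level was 74.8, 55.8 and 63.1 CPM in nmr-2(ok3324) replicates 1, 2 and 3, against 17.1, 14.1 and 13.3 CPM in WT replicates 1, 2 and 3. Every mutant library lay at more than 3 times the highest WT library. The mean was thus 4.36 times as high in nmr-2(ok3324), a log2 fold change of 2.12 (SE 0.14, adjusted p = 2.8e-07 with edgeR). Per kilobase of exon, grl-16 ranked 6 of 86 members in nmr-2(ok3324) and 12 in WT.

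The groundhog gene grd-6 showed the greatest fold of all tested members. It lies on chromosome V, 9221866 to 9224354, plus strand, 5.78 Mb from nmr-2. Its level was 10.7, 13.7 and 9.64 CPM in the mutant libraries, against 2.11, 1.12 and 0.443 CPM in the WT libraries. The WT values themselves spread widely, while the lowest mutant value stood far above the highest of them. Means differed by a ratio of 9.27, a log2 fold change of 3.22 (SE 0.35, adjusted p = 3.31e-05). Without WT replicate 1 the log2 fold change was 3.89. In rank per kilobase, grd-6 stood at 16 in nmr-2(ok3324) and 32 in WT.

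A second groundhog gene, grd-14, rose by a smaller factor. It lies on chromosome X, 8500021 to 8501037, plus strand. It had 15.8, 16.9 and 12.5 CPM in nmr-2(ok3324) libraries, against 6.97, 7.71 and 5.63 CPM in WT libraries, without overlap (log2 fold change 1.16, SE 0.18, adjusted p = 0.00111).

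The warthog gene wrt-4 was the only member of its family past the threshold. Its gene is on chromosome X, 15752257 to 15757269, minus strand. It had 4.33, 4.33 and 3.90 CPM in the mutant libraries, against 1.64, 0.824 and 0.845 CPM in WT. Counts were 122, 116 and 82 in nmr-2(ok3324) and 38, 17 and 21 in WT, so WT replicate 1 lay above the other WT libraries and below every mutant library. Its log2 fold change was 1.92 (SE 0.30, adjusted p = 0.00161).

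**Figure D1:**
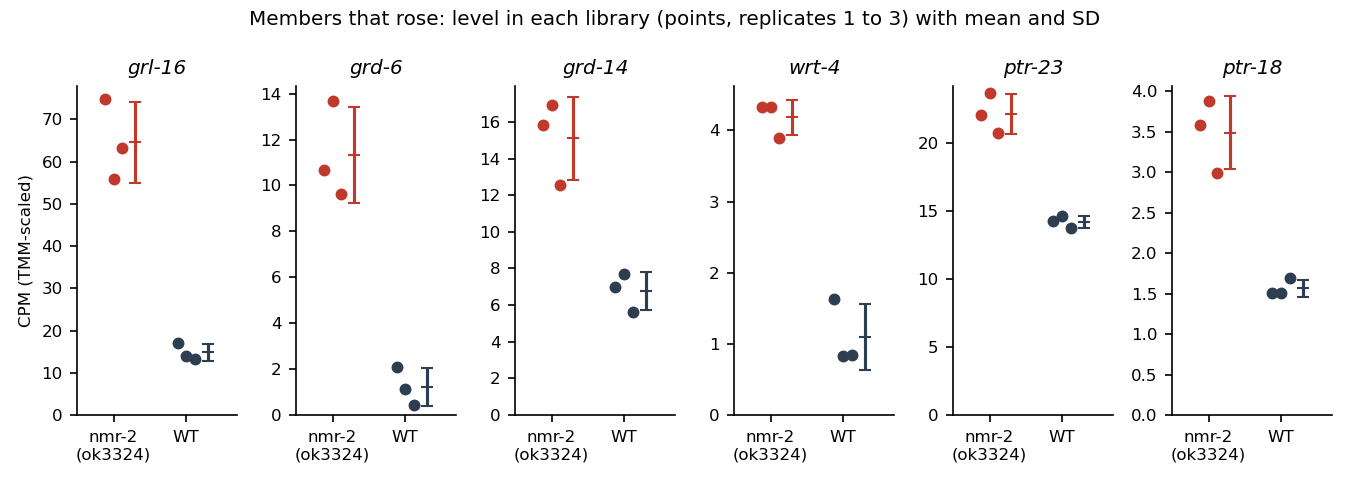
Level of the 6 members that rose, in CPM scaled by TMM (vertical axes, linear, starting at 0), in nmr-2(ok3324) and WT libraries. Points are replicates 1 to 3 from left to right and bars the mean and SD (n = 3); in every panel the lowest mutant library lies above the highest WT library.

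Both risen genes of the patched group belong to the ptr family, whose proteins share the sterol-sensing domain of Patched. ptr-23 (chromosome I, 14906792 to 14913083, plus strand) had 22.1, 23.7 and 20.8 CPM in nmr-2(ok3324) libraries, against 14.3, 14.6 and 13.8 CPM in WT libraries. The spread within each genotype was narrow, with an SD of 1.48 CPM in nmr-2(ok3324) and 0.443 CPM in WT. At 0.64 its log2 fold change was the smallest of the 6 (SE 0.13, adjusted p = 0.012). Among the fits without 1 library, the call was lost without WT replicate 1 (adjusted p = 0.058) and without WT replicate 3 (adjusted p = 0.0623). Its adjusted p had a range of 0.00157 to 1 across the alternatives, the highest being the test against a fold of 1.5.

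ptr-18 (chromosome II, 12965546 to 12978171, plus strand) is known for keeping progenitor cells of starved first-stage larvae at rest. It had 3.58, 3.88 and 2.99 CPM in the mutant libraries, against 1.51, 1.503 and 1.69 CPM in the WT libraries, again without overlap. This is a log2 fold change of 1.15 (SE 0.26, adjusted p = 0.0289). It had the weakest call of the 6: leaving out any single library other than nmr-2(ok3324) replicate 3 put the adjusted p between 0.0725 and 0.111, and the log2 fold change between 1.06 and 1.20. Across all alternatives its adjusted p ran from 0.00784 to 0.369.

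Fold changes of the tested members ran from -0.82 to 3.22 on the log2 scale. Their median was 0.34, beside 0.03 over all tested genes, and 38 were above 0 and 12 below. With library totals in place of TMM, 42 were above 0 and 8 below, while the median of all tested genes moved to 0.20. Relative to all genes the members' median was 0.31 with TMM and 0.32 with library totals. The members were mostly rare transcripts: 10 of the 50 lay in the lowest 10% of all tested genes by abundance and 12 in the next 10%. Over all tested genes the median log2 fold change was 0.30 in the lowest 10% by abundance and -0.19 in the highest 10%. The part of abundance in the members' median was not tested. Of the 50, 35 reached the filter in all 6 libraries, and 8 did so in 3 mutant but fewer than 3 WT libraries, so that the filter kept them through the genotype in which they were high; 1 was the opposite case.

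**Figure D2:**
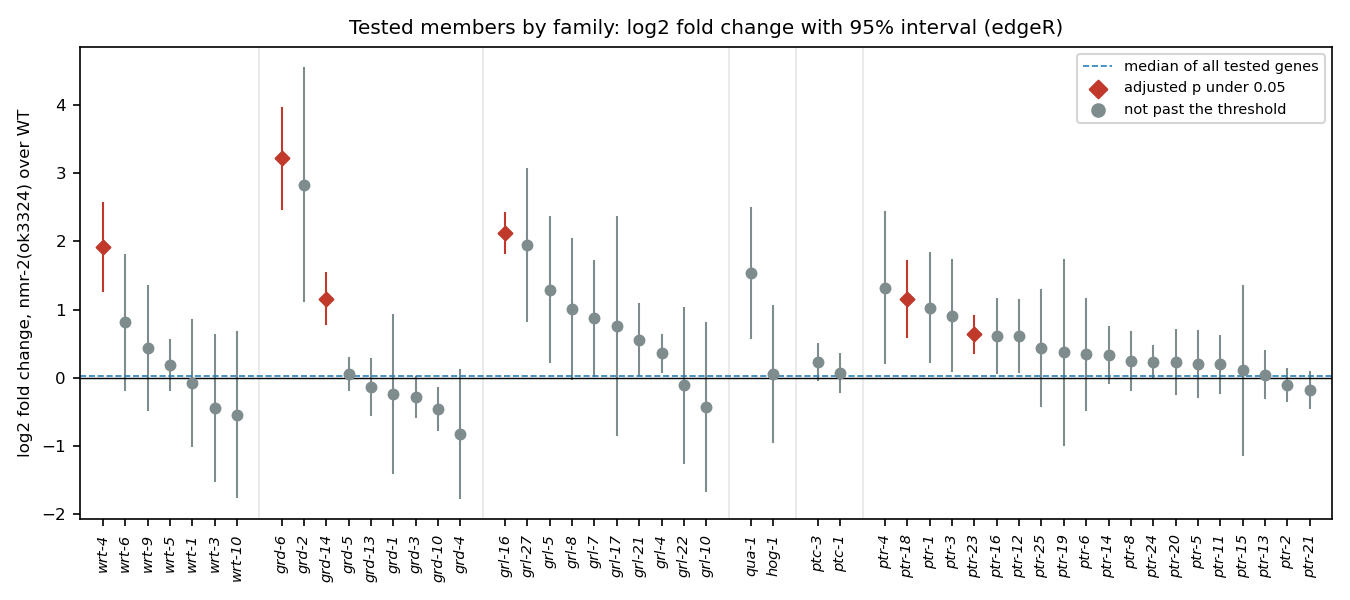
Log2 fold change of nmr-2(ok3324) over WT (vertical axis) with its 95% interval from edgeR for the 50 tested members, grouped by family and ordered by size along the horizontal axis. Diamonds mark the 6 members past an adjusted p of 0.05, circles the other 44, and the dashed line the median of all tested genes at 0.03.

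Groups did not overlap in 15 of the 50 tested members on the higher side, where 13.4% of all tested genes behaved so, and in 2 on the lower side, where 11% did. At an unadjusted p under 0.05, 19 members were higher, against 10.2% of all tested genes, and 1 was lower, against 6.91%. These counts include members that passed the filter only through mutant libraries. They are therefore a description of the list and not a result about it.

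Within the warthog family, wrt-5 was the most abundant member and showed no difference past the threshold. It had 11.3 CPM per kilobase in nmr-2(ok3324) and 9.97 in WT, a log2 fold change of 0.18 (95% interval -0.18 to 0.55, adjusted p = 0.583). The 7 tested wrt genes had fold changes of -0.54 to 1.92. wrt-6 and wrt-9 were uneven within WT: wrt-6 had 48, 35 and 33 counts in nmr-2(ok3324), against 38, 8 and 14 counts in WT. wrt-1 and wrt-10 lie back to back on chromosome II with 15 bases between them. Neither passed: wrt-1 had 32, 15 and 18 counts in nmr-2(ok3324) and 24, 14 and 24 in WT, and wrt-10 had 20, 8 and 7 in nmr-2(ok3324) and 22, 6 and 18 in WT. wrt-3 was low in 1 mutant library, with 32, 29 and 4 counts against 28, 22 and 27 counts in WT. The seam cell gene wrt-2, whose exons overlap the far more abundant pccb-1 on the other strand, had 30 counts in the mutant and 20 in WT over all libraries and was not tested.

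The groundhog family held the most abundant transcripts per kilobase, and also the tested member with the lowest fold change, grd-4. grd-3 led all 86 members, at 147 CPM per kilobase in nmr-2(ok3324) and 178 in WT, followed by grd-5 at 134 in nmr-2(ok3324) and 129 in WT. grd-3 stood above grd-5 in 6 of 6 libraries, and grd-5 above the next gene, ptc-1, in 6 of 6. grd-3 had 108, 85.1 and 111 CPM in the mutant libraries, against 115.4, 148 and 106 CPM in the WT libraries, and the groups overlapped (log2 fold change -0.28, 95% interval -0.58 to 0.01, adjusted p = 0.303). grd-5 had 77.9, 63.8 and 68.7 CPM in nmr-2(ok3324), against 72.1, 68.7 and 61.2 CPM in WT, a log2 fold change of 0.058 (95% interval -0.18 to 0.30).

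Next to grd-3 on chromosome IV lie grd-13, 147 bases before it, and grd-10, 601 bases after it, all on the plus strand. grd-10, whose promoter is used to mark seam cells, was the 1 member lower at an unadjusted p under 0.05. It had 17.7, 15.1 and 13.97 CPM in nmr-2(ok3324) libraries, against 21.5, 24.3 and 18.8 CPM in WT libraries, so the groups did not overlap. Its log2 fold change was -0.46 (SE 0.14, adjusted p = 0.132, and 0.0523 to 1 over the alternatives). grd-13 had a log2 fold change of -0.13 (95% interval -0.54 to 0.28).

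The risen grd-14 also has a close neighbour, grd-4, which starts 184 bases downstream on the same strand. grd-4 had 12, 19 and 14 counts in nmr-2(ok3324) and 28, 25 and 19 counts in WT. Its log2 fold change was -0.82 (95% interval -1.76 to 0.12, adjusted p = 0.342), while the interval of grd-14 ran from 0.79 to 1.54. The difference between the neighbours was not tested. Close groups elsewhere held few counts: grl-28, grl-29, grl-30 and grl-31 on chromosome V together had 5 counts in the mutant, all from grl-30, and 1 in WT, from grl-28.

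grd-2, whose protein carries a Hog domain, was close to absent in WT. It had 13, 14 and 14 counts in nmr-2(ok3324) libraries, against 4, 0 and 1 counts in WT libraries. Summed per genotype, 41 counts in nmr-2(ok3324) and 5 in WT amount to a ratio of 7.41 (95% exact interval 2.93 to 24.0, counting error only). Its log2 fold change of 2.83 (SE 0.80) had an adjusted p of 0.0958 with edgeR, and limma-voom put it at 0.0408, the one call among 14 alternatives (adjusted p 0.0408 to 0.309). Without WT replicate 1, which holds 4 of the 5 WT counts, the log2 fold change was 4.35 (adjusted p = 0.0819). grd-2 reached the filter in the 3 mutant libraries and in no WT library, so the filter kept it through the genotype in which it is high.

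Among ground-like genes other than grl-16, none passed, where 1.79% of all tested genes rose. An unadjusted p under 0.05 was reached by 5: grl-27, grl-4, grl-5, grl-21 and grl-7. All 5 were higher, as were 10.2% of all tested genes at that threshold. grl-27 had 48, 35 and 43 counts in nmr-2(ok3324), against 13, 14 and 2 counts in WT, without overlap (log2 fold change 1.95, SE 0.52, adjusted p = 0.0733), and the log2 fold change was 2.55 without both libraries numbered 2. DESeq2 called it, with an adjusted p of 0.016, and the range over the alternatives was 0.00178 to 0.312. grl-27 reached the filter in 3 mutant and 2 WT libraries, so the filter kept it through the genotype in which it is high. grl-4, the most abundant of the family, had 37.7, 32.7 and 31.2 CPM in the mutant, against 28.4, 28.2 and 22.6 CPM in WT (log2 fold change 0.36, SE 0.13, adjusted p = 0.179).

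grl-5 had 39, 67 and 61 counts in nmr-2(ok3324) and 44, 9 and 10 in WT, so that WT replicate 1 alone lay among the mutant libraries. Its log2 fold change was 1.29 (adjusted p = 0.215), and 2.41 without WT replicate 1 (adjusted p = 0.0179). grl-5 reached the filter in 3 mutant libraries and 1 WT library, so it too was kept through the mutant. grl-21, a ligand gene tied to fat storage, had 281, 180 and 123 counts in nmr-2(ok3324), against 131, 127 and 90 counts in WT, a log2 fold change of 0.56 (adjusted p = 0.265). ptr-24, which has been placed with grl-21 in that role, had 46.8 ± 3.83 CPM in nmr-2(ok3324) and 39.7 ± 2.92 CPM in WT (log2 fold change 0.24, adjusted p = 0.29). grl-7, described as a ligand cleared by PTR-18, had 100, 56 and 45 counts in nmr-2(ok3324) against 52, 12 and 35 in WT (log2 fold change 0.87, adjusted p = 0.279).

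qua-1, which is needed for molting, had 48, 97 and 35 counts in nmr-2(ok3324) libraries, against 24, 6 and 26 counts in WT libraries. The mutant libraries all lay above the WT libraries, with replicate 2 highest in the mutant and lowest in WT. This gave a log2 fold change of 1.54 (SE 0.45, adjusted p = 0.104). DESeq2 called it (adjusted p = 0.0376), and the range over the alternatives was 0.00332 to 0.524. qua-1 reached the filter in 3 mutant and 2 WT libraries, so the filter kept it through the genotype in which it is high. Without both libraries numbered 2 the log2 fold change was 0.69 (adjusted p = 0.462). hog-1, which holds a Hog domain with none of the family's other signalling domains, had 18, 19 and 17 counts in the mutant and 23, 13 and 11 in WT, a log2 fold change of 0.060 (adjusted p = 0.96).

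**Figure D3:**
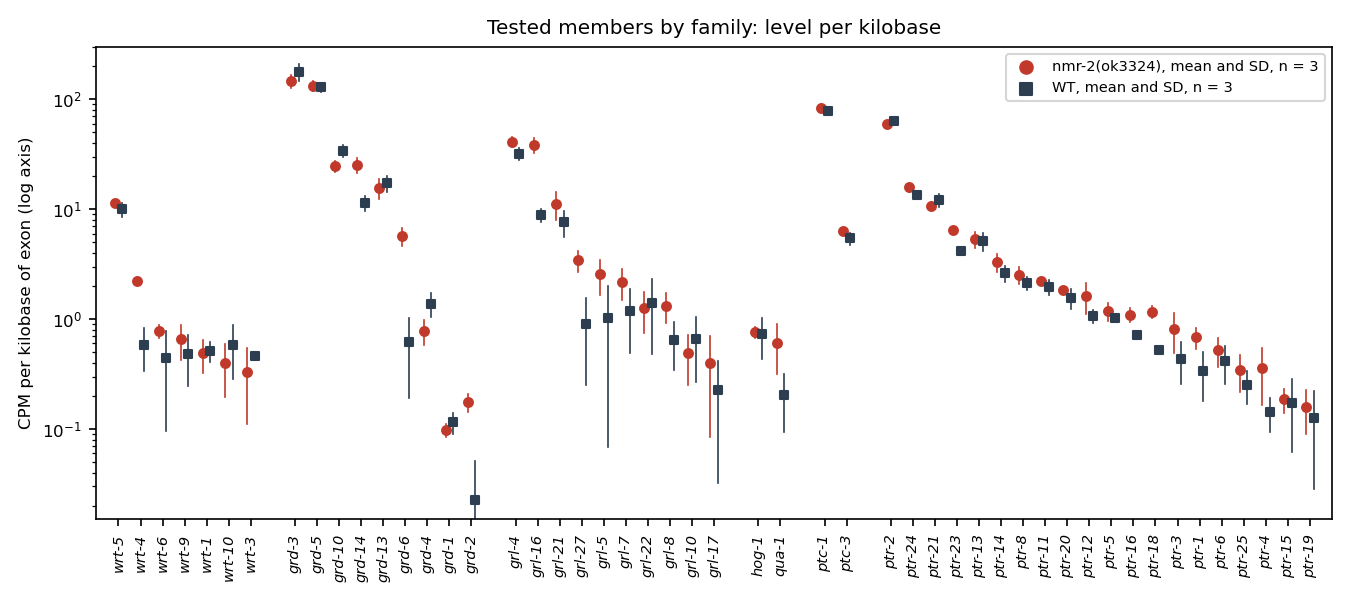
Level per kilobase of exon in CPM (vertical axis, logarithmic) for the 50 tested members by family, with nmr-2(ok3324) as circles and WT as squares, each the mean with its SD (n = 3). SD bars that reach 0 or less are cut at the axis; grd-3, grd-5, ptc-1 and ptr-2 are the 4 highest in both genotypes.

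The patched genes themselves were abundant and showed no difference past the threshold. ptc-1, needed for cell division in the syncytial germline, supplied 36.2% of the summed CPM of all members in nmr-2(ok3324) and 37.6% in WT. It had 389, 469 and 406 CPM in the mutant libraries, against 396, 380 and 426 CPM in the WT libraries. The log2 fold change was 0.073 (95% interval -0.20 to 0.35, adjusted p = 0.791), and -0.016 without nmr-2(ok3324) replicate 2. ptc-3 had 29.7, 27.5 and 28.2 CPM in nmr-2(ok3324), against 27.2, 21.1 and 24.1 CPM in WT, close but without overlap (log2 fold change 0.24, 95% interval -0.03 to 0.50, adjusted p = 0.331). ptd-2 had 4, 4 and 0 counts in the mutant and 1, 1 and 3 in WT and was not tested.

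Of 24 patched-related genes 20 were tested. Beside ptr-18 and ptr-23, 6 more had an unadjusted p under 0.05, all on the higher side: ptr-1, ptr-3, ptr-4, ptr-12, ptr-16 and ptr-24. Of all tested genes, 10.2% were higher at that threshold and 6.91% lower. ptr-4, which helps to order the apical matrix, had 47, 32 and 10 counts in nmr-2(ok3324), against 14, 6 and 11 in WT, so that mutant replicate 3 fell among the WT libraries (log2 fold change 1.32, adjusted p = 0.223). ptr-4 reached the filter in 3 mutant and 2 WT libraries, so the filter kept it through the mutant. ptr-1 had 70, 55 and 34 counts in the mutant, against 21, 32 and 15 in WT, without overlap in CPM (log2 fold change 1.03, adjusted p = 0.191). ptr-3 had 88, 76 and 28 counts in the mutant and 29, 39 and 20 in WT, with overlap (log2 fold change 0.91, SE 0.38, adjusted p = 0.245). ptr-12 had 7.84, 5.12 and 4.32 CPM in the mutant and 3.19, 4.07 and 4.11 CPM in WT, without overlap (0.61, SE 0.25, adjusted p = 0.23). ptr-16 had 3.65, 2.99 and 2.76 CPM in the mutant and 2.20, 2.04 and 1.93 CPM in WT, also without overlap (0.61, SE 0.26, adjusted p = 0.245).

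The most abundant ptr gene, ptr-2, had 174, 161 and 185 CPM in nmr-2(ok3324) libraries, against 174, 197 and 189 CPM in WT libraries. Its log2 fold change was -0.11 (95% interval -0.34 to 0.13, adjusted p = 0.618), and 0.067 with library totals in place of TMM. ptr-21 had 36.3 ± 3.09 CPM in the mutant and 41.3 ± 5.59 CPM in WT (log2 fold change -0.18, adjusted p = 0.437). ptr-2 and ptr-21 were the 2 of 20 with values below 0. The intervals of ptc-1, ptr-2, grd-5 and ptr-13 lay between -0.34 and 0.39 on the log2 scale, and a smaller difference was not detectable in these libraries.

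Summed over a family, the differences between genotypes were of different size. All ground-like genes together had 134, 104 and 112 CPM in nmr-2(ok3324), against 60.2, 54.1 and 44.8 CPM in WT, a ratio of 2.20. Without grl-16 the other 30 had 52.2 ± 6.09 CPM in the mutant and 38.2 ± 6.04 CPM in WT. Warthog genes summed to 19 ± 2.28 CPM in nmr-2(ok3324) and 14 ± 3.16 CPM in WT, and groundhog genes to 225 ± 19.5 CPM in nmr-2(ok3324) and 233 ± 30.3 CPM in WT. The ptr family summed to 351, 351 and 352 CPM in the mutant libraries and 331, 348 and 341 CPM in the WT libraries, a ratio of 1.03. The groundhog ratio was 0.968, or 0.884 without grd-6 and grd-14, and that of the patched genes 1.06. Both turned round without both libraries numbered 2, to 1.08 for the groundhog and 0.976 for the patched genes. The most abundant genes in these sums were grd-3 and grd-5 for the groundhog family, ptc-1 for the patched genes and ptr-2 for the ptr family.

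**Figure D4:**
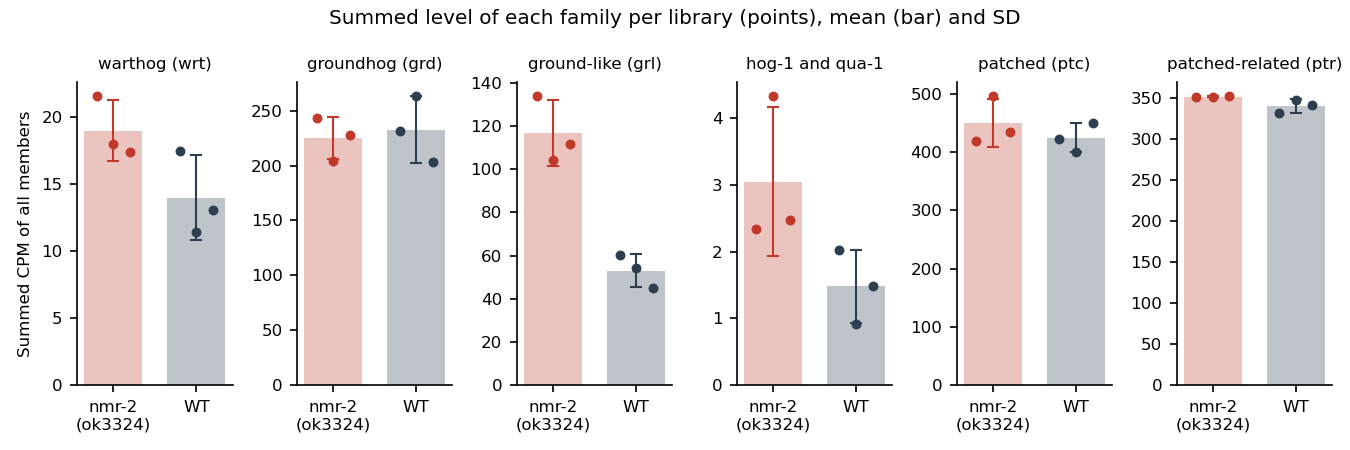
Summed CPM of all members of each family (vertical axes, linear from 0) in nmr-2(ok3324) and WT, with libraries as points, the mean as bar and the SD as error bar (n = 3). Ground-like genes sum to 117 CPM in the mutant and 53.0 CPM in WT, whereas the patched and patched-related sums of the genotypes have ratios of 1.06 and 1.03, the patched one turning to 0.976 without both libraries numbered 2.

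The 36 members that were not tested had 0 to 70 counts over all 6 libraries. 5 of them, grl-19, grl-23, grl-24, grl-29 and grl-31, had no count in any library. This allows up to 3 counts in each, or 0.108 to 0.141 CPM by library total, before TMM scaling. Of the rest, wrt-8 had 5, 15 and 4 counts in nmr-2(ok3324) against 2, 0 and 1 in WT. Over all libraries that is 24 counts in nmr-2(ok3324) and 3 in WT, a ratio of 7.23 (95% exact interval 2.20 to 37.5, counting error only), and it lies 0.33 Mb from nmr-2. ptr-17 had 7, 14 and 0 counts in the mutant and 0, 0 and 2 in WT. Its ratio of 9.49 (2.32 to 83.5, counting error only) rests on mutant replicates 1 and 2. grl-18 had 4, 4 and 6 counts in nmr-2(ok3324) and 7, 5 and 14 in WT. Its summed counts gave a ratio of 0.487 (0.235 to 0.967, counting error only), and the groups overlapped in CPM. These intervals leave out the spread between libraries, and the share of all untested genes with such intervals was not computed. The 6 counts of grl-25 all came from nmr-2(ok3324) replicate 2, and grd-16 had 1, 5 and 0 counts in the mutant and 0 in WT. Exons of 25 members, 7 of them tested, overlap a protein-coding gene, and for 23 that gene had more counts than the member. Counting without strand would let such reads be lost or shared.

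Members were also placed relative to nmr-2. Chromosome V, which carries nmr-2, holds 33 of the 86 members, and the nearest, grd-12, lies 0.026 Mb away. grd-12 had 3, 0 and 0 counts in the mutant and 3, 0 and 4 in WT, and wrt-7, at 0.323 Mb, had 1 count in all. Of the 6 risen members grd-6 alone is on chromosome V. Whether sequence linked to ok3324 differs between the strains was not tested.

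Other homologues of the hedgehog pathway and sterol-sensing proteins were set beside the members. Of 17 tested genes of this list, none was called by edgeR, by DESeq2 or by limma-voom (0 each). With edgeR 1.79% of all tested genes rose and 0.373% fell, so 0 among 17 is near those shares. An unadjusted p under 0.05 was reached by 3, ncr-1, hhat-1 and lrp-1, all higher, where 10.2% of all tested genes were. ncr-1, a homologue of the sterol transporter NPC1, had 9.53 ± 0.733 CPM in nmr-2(ok3324) and 7.12 ± 0.207 CPM in WT (log2 fold change 0.42, adjusted p = 0.223). hhat-1, a homologue of the Hedgehog acyltransferase, had 27, 28 and 24 counts in nmr-2(ok3324) against 17, 9 and 10 in WT (log2 fold change 0.99, adjusted p = 0.273). lrp-1, a megalin homologue of the epidermis, had a log2 fold change of 0.46 (adjusted p = 0.263). tra-1, the homologue of the GLI transcription factors, had 1386, 1310 and 1012 counts in the mutant and 1132, 1011 and 1183 in WT. The list's median was 0.14.

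Molting and epidermal genes were set beside the members, since many hedgehog-related genes are transcribed there. These lists were written with earlier results of these data known, so their counts are a description only. Of 16 molting genes 3 rose, where 1.79% of all tested genes did: mlt-8 (log2 fold change 1.25, SE 0.24, adjusted p = 0.0099), mlt-7, a peroxidase of the cuticle (0.89, SE 0.18, adjusted p = 0.0139), and acn-1 (0.86, SE 0.19, adjusted p = 0.0278). Without 1 library, mlt-8 lost its call without WT replicate 3 (adjusted p = 0.0528), mlt-7 without WT replicate 1 (adjusted p = 0.0806) and acn-1 without any library other than nmr-2(ok3324) replicate 1 (adjusted p 0.0721 to 0.116). None fell with edgeR, where 0.373% of all tested genes did, while noah-1, a gene of the apical matrix, had 51, 83 and 49 counts in nmr-2(ok3324), against 108, 101 and 106 counts in WT (log2 fold change -0.93, SE 0.25, adjusted p = 0.0761). DESeq2 called 4 of the list, noah-1 among them as lower (adjusted p = 0.0164). The list's median was 0.18, with -0.040 without both libraries numbered 2. Of 11 epidermal transcription regulators 0 were called by any of the 3 tools (edgeR, DESeq2, limma-voom), with 2 at an unadjusted p under 0.05, both higher. Over all tested genes, 1.79% rose with edgeR and 10.2% were higher at an unadjusted p under 0.05. nhr-23, the receptor that drives molting, had 1666, 1279 and 1227 counts in the mutant, against 1342, 1384 and 1571 in WT. Of 4 hypodermis markers, the collagen gene dpy-4 rose (1.82, SE 0.19, adjusted p = 2.52e-05), and the list summed to 67.1 to 92.2 CPM in nmr-2(ok3324) and 26.6 to 37.6 CPM in WT. Most of that sum was dpy-4, with 61.7 CPM in nmr-2(ok3324) and 17.5 CPM in WT, and without it the sums were 13.3 to 18.04 CPM in nmr-2(ok3324) and 14.05 to 15.6 CPM in WT. Without both libraries numbered 2 the adjusted p of dpy-4 was 0.159. rol-6 had a log2 fold change of 1.13 (adjusted p = 0.0691, called by DESeq2 and limma-voom), and elt-3 one of -0.25 (adjusted p = 0.437). dpy-7 had 5 to 11 counts per library and was not tested.

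Markers of other cells gave no call with edgeR, where 1.79% of all tested genes rose and 0.373% fell. Lists this short would hold few calls at those shares. At an unadjusted p under 0.05, 10.2% of all tested genes were higher and 6.91% lower. Seam markers summed to 21.03 to 25.7 CPM in nmr-2(ok3324) and 22.2 to 24.0 CPM in WT, almost all from egl-18. Of these 6, ceh-16, nhr-73, bro-1 and rnt-1 had 0 to 8 counts per library. Glia markers summed to 5.23 to 6.49 CPM in nmr-2(ok3324) and 5.31 to 6.97 CPM in WT, with delm-1 and delm-2 at 0 throughout. Pharyngeal muscle markers summed to 89.1 to 110 CPM in the mutant and 69.1 to 79.9 CPM in WT, without overlap. Of these 4, 3 had an unadjusted p under 0.05, all higher (1 called by DESeq2). Both sperm markers had an unadjusted p under 0.05, and together they summed to 7.13 to 11.1 CPM in nmr-2(ok3324) and 3.94 to 5.25 CPM in WT, without overlap. Of these, spe-11 had a log2 fold change of 0.86 (adjusted p = 0.0522) and was called by DESeq2 (adjusted p = 0.0164), and spe-9 had one of 1.17 (adjusted p = 0.249). Neuron markers summed to 13.8 to 16.8 CPM in nmr-2(ok3324) and 10.8 to 15.2 CPM in WT. Body wall muscle markers summed to 3863 to 4639 CPM in nmr-2(ok3324) and 3708 to 3977 CPM in WT, with 1 of 3, myo-3, at an unadjusted p under 0.05. Germline markers summed to 2028 to 2592 CPM in nmr-2(ok3324) and 2609 to 2964 CPM in WT, close but without overlap. Intestine markers summed to 17220 to 23560 CPM in nmr-2(ok3324) and 22720 to 25460 CPM in WT. Most of that sum was vit-2, with means of 19030 CPM in nmr-2(ok3324) and 21640 CPM in WT. Of the 4 intestine markers, ges-1 alone had an unadjusted p under 0.05 and was lower (log2 fold change -0.32, adjusted p = 0.234 with edgeR). The part of the stage, the molting phase or the cell makeup in the members' differences was not tested.

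The calls were followed through 15 other settings. grl-16, grd-6, grd-14 and wrt-4 passed under all 15. Log2 fold changes ran over 2.00 to 2.28 for grl-16, 2.78 to 3.89 for grd-6, 1.03 to 1.35 for grd-14 and 1.74 to 2.32 for wrt-4. grd-14 came closest to the threshold, with an adjusted p of 0.0496 in the test against a fold of 1.5. In the other settings its adjusted p was at most 0.00969, while grd-6 reached 0.0171 and wrt-4 0.0142. ptr-23 passed under 11 of the 15 and ptr-18 under 6. With other tools 8 members rose in DESeq2, where 2.32% of all tested genes did, and 7 in limma-voom, where 1.66% did. The 8 include grl-27 and qua-1 and the 7 include grd-2, which the filter kept through mutant libraries. With other scalings 6 rose with RLE size factors (1.6% of all tested genes) and 5 with library totals (1.35%). With other filters 9 rose without a low-count filter (2.27%) and 6 where at least 1 CPM in 3 libraries was required (2.03%). Against a fold of 1.5 as the null, 4 rose (0.891%), and 4 with the replicate number in the model (0.944%). Leaving out nmr-2(ok3324) replicate 1, 5 members rose (1.15%), without replicate 2 of the mutant 5 (1.45%) and without its replicate 3 6 (1.68%). Leaving out WT replicate 1, 5 rose (1.3%), without WT replicate 2 6 (1.48%) and without WT replicate 3 4 (1.12%). Without both libraries numbered 2, whose scaling factors stand apart, 7 members rose, where 2.61% of all tested genes did: ptr-18 dropped out (adjusted p = 0.0694), and grl-4 (adjusted p = 0.0389) and grl-27 (adjusted p = 0.00684) came in. There, 0 members fell, where 1.4% of all tested genes did.

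**Figure D5:**
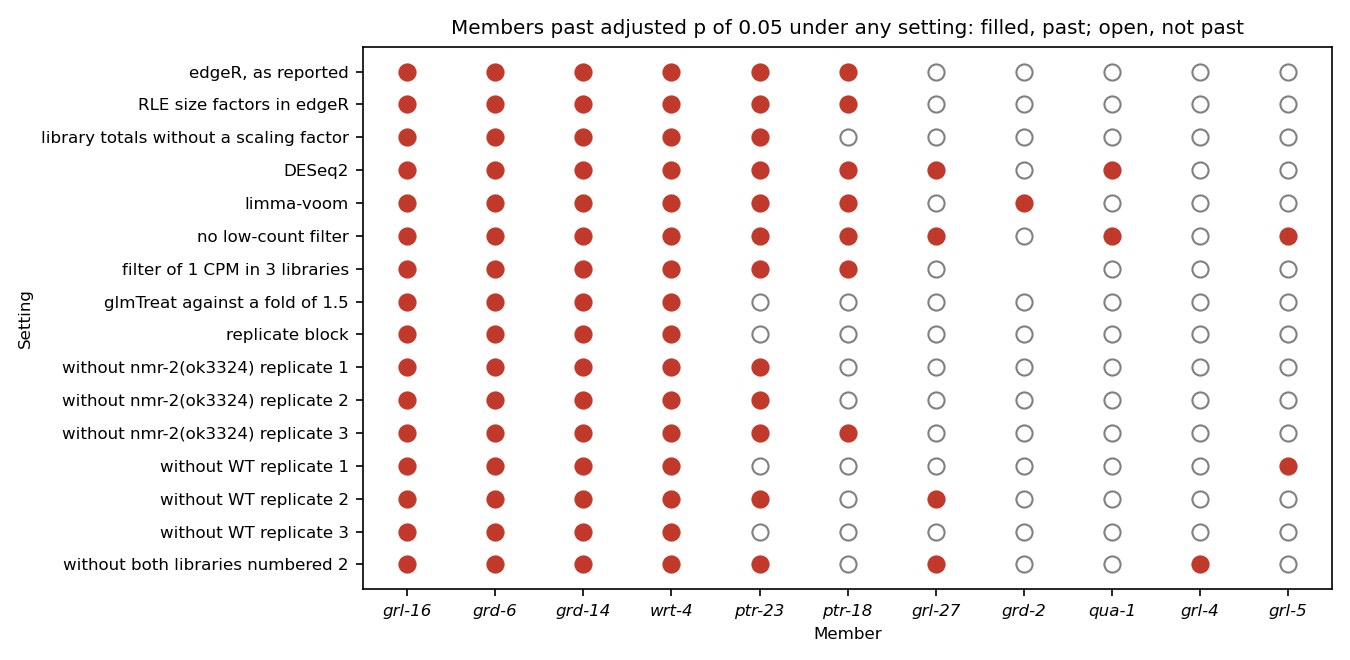
Members past an adjusted p of 0.05 (filled) or not (open) under each setting (rows) for every member called at least once (columns, ordered by p). The 4 leftmost members, grl-16, grd-6, grd-14 and wrt-4, are filled in every row; an empty place means that the member was not tested there.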

How the data were processed

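Whole-animal RNA of 3 nmr-2(ok3324) and 3 WT libraries was counted per gene. The authors deposited raw counts per WormBase gene ID, 1 table per library. Per the submitters' processing notes the tools included HTSeq and DESeq2, without versions; aligner, genome build, annotation and strand setting: not given in the sources used here. Symbols were paired with 44059 of 46911 IDs, and all 86 members were found. Exon lengths and positions came from the WBcel235 annotation of Ensembl release 115, matched by ID. Sequences were not used here.

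Counts were fitted in R 4.3.3 with edgeR 4.0.16 (filterByExpr by genotype, nmr-2 kept in any case, TMM, robust glmQLFit, glmQLFTest) over 13138 genes, with Benjamini-Hochberg adjustment at 0.05. In the text, rose and fell mark genes past it. The SE is the absolute log2 fold change over the square root of F. Alternatives used DESeq2 1.42.0, limma 3.58.1, other scalings and filters, glmTreat with a 1.5-fold null, a block on replicate number, and each library left out. The fit without both libraries numbered 2 was added after the data were examined.

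Members and lists were chosen with earlier results of these data known. All members could be named. In full came those past the threshold, the most abundant tested member per kilobase of each family, and those with an unadjusted p under 0.05, and others only by counts or range. Other members named with values were picked with those values in view. Separate cultures per library are not recorded in the labels; p-values thus reflect only library-to-library spread, possibly technical. Pairs differed beyond sampling noise (chi-square per degree of freedom 9.59 to 42). Totals of 21234748 to 27893186 counts set the precision. On counts simulated for this comparison (12875 genes), the edgeR step recovered 38.8%, 68.7% and 84.8% of genes changed 1.5-fold, 2-fold and 4-fold, with 11 false calls among 139. Figures used matplotlib 3.10.9.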

Additional observations from a re-analysis of the deposited data

How the results depend on the processing

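The number of members that rose was 6 with edgeR as reported, 8 with DESeq2, 7 with limma-voom, 9 without a low-count filter, 4 with the test against a fold of 1.5, 5 with library totals, and 4 to 6 when 1 library was left out. It was 0 on the lower side with edgeR, DESeq2 and limma-voom and without both libraries numbered 2. The median log2 fold change of the tested members was 0.52 with library totals, where that of all tested genes was 0.20, and 0.22 to 0.38 when 1 library was left out. For nmr-2 no setting gave a call. Signs were followed for the members given in full. Those that changed sign were uncalled, with values near 0 in edgeR as reported. They were ptr-2 (0.067 with library totals), ptc-1 (-0.049 without both libraries numbered 2, and -0.016 to 0.125 when 1 library was left out) and hog-1 (-0.196 to 0.42 when 1 library was left out). Over all 50 tested members, 38 were above 0 with TMM and 42 with library totals, so further members changed sign there. The cause was not tested. Of 372 fold changes of named members under other settings, 343 kept direction and side of the threshold, 13 lost the call, all of ptr-18 or ptr-23, and 10 gained it.

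Deviations from the genotype means correlated at 0.001, -0.277 and -0.102 between mutant and WT libraries numbered 1, 2 and 3. With 3 libraries per genotype, these values cannot exclude a pairing by number. Replicate 1 was the highest library of its genotype for 23 of the 50 tested members in nmr-2(ok3324) (46%) and 26 in WT (52%). Of all tested genes, 30.36% in nmr-2(ok3324) and 28.45% in WT were highest in replicate 1. With the replicate block 4 members rose, grl-16, grd-6, grd-14 and wrt-4, with an adjusted p of 0.0895 for ptr-23 and 0.153 for ptr-18, and a median log2 fold change of 0.34 over the tested members. Nothing in the labels ties a number to a shared culture or day.

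Low counts limit the list: 36 of 86 members were not tested. Of the 50 tested, 10 lay in the lowest 10% by abundance and 12 in the next 10%. Whether deeper sequencing would bring in more members was not tested. The promoter comparison planned at the start was not run.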
